A study of Danio rerio with 12 samples.

Results

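The expression of 10 genes known from neuron differentiation was followed. They were the transcription factor genes neurod1, neurod2, neurod4, isl1 and isl2a, the RNA-binding protein genes elavl3 and elavl4, and gap43, islr2 and cdk5r1a, which act in axons or the neuronal cytoskeleton. They were chosen by name, and every probe whose RefSeq accession belongs to one of these 10 symbols was read. That gave 19 probes of the 43603 non-control probes on the array, and 10 genes of the 14016 that could be named. Of the 10 genes, 3 had 1 probe, 5 had 2 and 2 had 3. All 19 passed the filter on dim probes, which kept a probe if some group had it well above background on each of its 3 arrays. The gene listed as isl1 is called isl1a in the current RefSeq table.

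The study measured whole zebrafish embryos on 12 single-colour arrays, in 4 groups of 3 pools. The first group had morpholinos against PCSK7 and p53 and was taken 24 h after fertilization, and the second had a control morpholino and was taken at 24 h. The third had PCSK7 and p53 morpholinos and was taken at 6 h, and the fourth had the control morpholino at 6 h. All embryos were wild-type AB fish, raised at 28.5 °C and injected into the yolk at the 1 to 4 cell stage, at a dose of 0.25 to 1.0 pmol per morpholino, and each pool held 18 to 35 embryos. A morpholino is an antisense oligonucleotide that blocks translation or splicing of its target, and PCSK7 is a protease that trims precursor proteins on their way out of the cell. The p53 morpholino was present wherever the PCSK7 morpholino was and in no control pool, so each comparison of morpholinos holds both. None of the named probes (0) belonged to pcsk7, so the targeted gene itself is not analysed here. Nothing in the labels says that the pools came from separate clutches, so the p-values below measure the spread between these pools. In the main fit that spread is taken over all 12 arrays together, 6 h arrays near or below background included.

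In the zebrafish, neurogenins and related basic helix-loop-helix factors commit neural plate cells to become neurons, and the NeuroD factors act after them as the cells leave the cell cycle. LIM homeodomain factors of the Islet family then mark sensory Rohon-Beard cells and motor neurons, among the earliest neurons of the embryo, and Hu proteins encoded by elavl genes appear in nearly all newborn neurons. Growth cone and axon proteins follow as the neurons extend processes. At 6 h the embryo is at the start of gastrulation and has no neurons yet. At 24 h the first neurons have extended axons in brain and spinal cord.

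Values are given as scaled signal, the background-subtracted brightness of a probe as a percent of the 75th percentile of all non-control probes on the same array. The brightness at that percentile was 1022 to 1087 units on the 24 h PCSK7 plus p53 arrays, 695 to 993 on the 24 h controls, 634 to 730 on the 6 h PCSK7 plus p53 arrays and 403 to 513 on the 6 h controls. A probe that was not well above background on any array of a group is given only a working upper limit there, and the difference is then given as "at least N-fold". That limit is taken on each array from the dimmest probe still well above background. This level stood at 0.681 to 0.740% on 24 h PCSK7 plus p53 arrays, 0.791 to 1.25% on 24 h controls, 0.875 to 1.08% on 6 h PCSK7 plus p53 arrays and 1.45 to 1.56% on 6 h controls. A probe can read brighter than this level and still fail, as neurod4 probe 1 did on a 6 h control array. In such cases the brighter reading served as the limit. The "at least" values therefore depend on this choice and are not strict lower bounds. Levels of different probes cannot be compared with each other, and where a gene has several probes they are numbered by their mean log2 value over the 12 arrays, highest first. Probe 1 stands for the gene in counts over genes. That order rests in part on 6 h readings near background, and at 24 h other probes of elavl4, isl2a and islr2 read higher than their probe 1. PCSK7 plus p53 and control arrays shared no slide and no scanning session, and per the file headers their images were read with different builds of the Feature Extraction software. Effects of slide, session or build and of the morpholinos cannot be told apart. The 6 h and 24 h PCSK7 plus p53 arrays also lay on different slides, while each control slide held both times. Time and slide therefore cannot be told apart in PCSK7 plus p53 embryos, nor in the difference of the morpholino changes between the times.

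Between the morpholinos at 24 h, neurod2 was above background only in PCSK7 plus p53 embryos, elavl4 was lower there on probe 1 but not on all its probes, and 7 genes gave no call on probe 1. The last, cdk5r1a, was below background in both groups. The elavl4 call was lost in 9 of 14 alternative fits. With the 24 h arrays fitted alone, elavl3 and neurod4 were called higher and islr2 lower, so the 24 h calls depend on how the spread is estimated. At 6 h, before neurons form, each group had 5 of the 10 genes above background on all its arrays, and 7 genes were so in 1 group or both. Among those 7, elavl3 was called higher in PCSK7 plus p53 embryos and elavl4, isl2a, islr2 and cdk5r1a were lower on probe 1. The gene neurod2 was above background only in PCSK7 plus p53 embryos, too near the floor of the control arrays for a measured rise. For elavl4, isl2a and islr2 the fall rests on probe 1 alone, since their other probes were below background on all 6 h arrays. The call on elavl3 was lost in 6 of 14 alternative fits. RNA of whole embryos was measured, so at 24 h a change in the number of neurons and a change in RNA per neuron cannot be told apart. At 6 h there are no neurons yet, and which cells gave the 6 h signals was not tested.

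**Figure D1:**
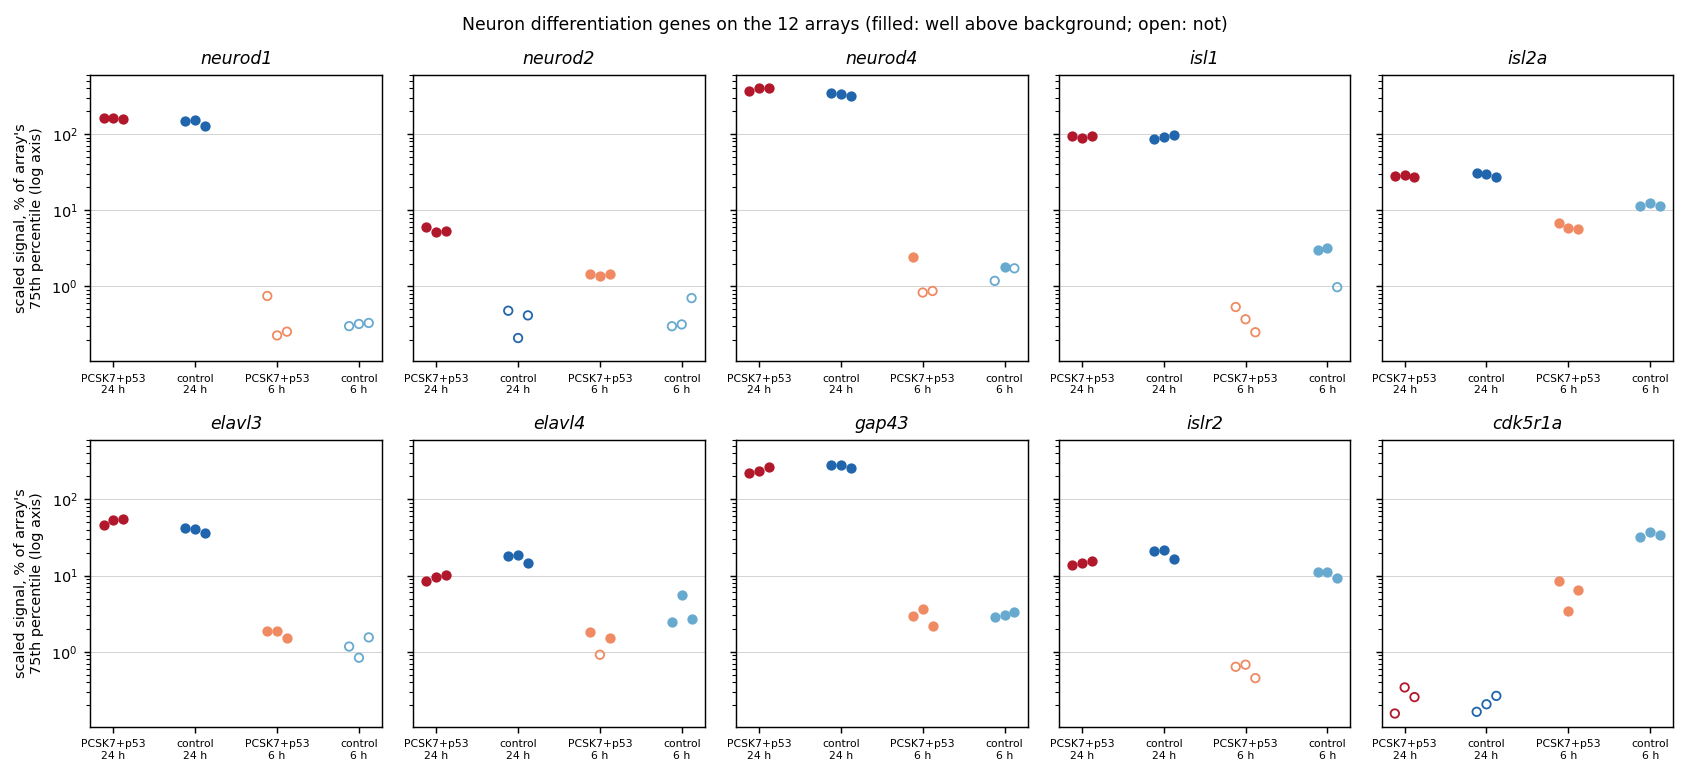
Scaled signal of probe 1 of each of the 10 genes on the 12 arrays, as a percent of the array's 75th percentile on a log axis, with 3 arrays per group in replicate order. Filled points are well above background and open points are not. Except for neurod2 and cdk5r1a, the genes lie highest at 24 h in both groups, and neurod2 is filled only in PCSK7 plus p53 embryos.

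Among the NeuroD factors, neurod2, which in the mouse acts in late differentiating forebrain neurons, had a scaled signal of 5.98, 5.19 and 5.36% in 24 h PCSK7 plus p53 embryos on probe 1, against 0.481, 0.211 and 0.418% in 24 h controls. All 3 PCSK7 plus p53 arrays were well above background and none of the control arrays was, so neurod2 was at least 5.52-fold higher (fitted log2 change 3.98, SE 0.35, limma adjusted p = 2.41e-05). Probe 2 gave 2.87, 3.02 and 2.07% in PCSK7 plus p53 embryos, against 0.211, 0.256 and 0.333% in controls. The probes of neurod2 both separated the groups at 24 h, the second by at least 2.63-fold (adjusted p = 2.00e-05). At 6 h probe 1 read 1.47, 1.36 and 1.47% in PCSK7 plus p53 embryos, against 0.301, 0.318 and 0.704% in controls. The groups did not overlap and the test made a call (log2 1.82, SE 0.35, adjusted p = 0.00123), but the 6 h PCSK7 plus p53 signal was so close to the lowest detectable signal of the control arrays that no fold can be given. Probe 2 was not well above background in either 6 h group.

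The early factor neurod1, which drives neuronal differentiation and is also used in pancreatic endocrine cells, was bright at 24 h in both groups. Probe 1 read 164, 164 and 158% in PCSK7 plus p53 embryos and 148, 153 and 128% in controls. The arrays did not overlap, yet the change was small against its error (log2 0.18, SE 0.35, adjusted p = 0.705). That error is shared with the 6 h arrays, which on this probe ran from 0.228 to 0.751% in PCSK7 plus p53 embryos, all below background. With the 24 h arrays fitted alone the change on probe 1 was not called either. Probe 2, a much dimmer one, read 2.72 to 3.72% in PCSK7 plus p53 embryos and 2.27 to 3.69% in controls, which overlap. At 6 h neither probe of neurod1 was well above background on any array.

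The third family member, neurod4, read 372, 404 and 407% on probe 1 in 24 h PCSK7 plus p53 embryos, against 341, 330 and 315% in 24 h controls. Every PCSK7 plus p53 array was above every control array, but the fitted change of 0.26 (SE 0.34, adjusted p = 0.565) did not pass. Its probe 2 read 74.2, 80.3 and 82.2% in PCSK7 plus p53 embryos, against 64.9, 62.1 and 58.1% in controls. There the rise passed the test, at log2 0.35 (SE 0.09, adjusted p = 0.00771). The fitted sizes on the 2 probes were 0.26 and 0.35, with a larger SE on probe 1. The 6 h arrays, which share in the estimate of the spread, read 2.41, 0.833 and 0.872% in PCSK7 plus p53 embryos and 1.18, 1.81 and 1.73% in controls on probe 1, with 1 of 3 arrays above background in each group.

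Of the Islet genes, isl1, which marks motor and sensory neurons as well as heart and pancreatic cells, had readings on probe 1 of 94.7, 88.0 and 94.5% in 24 h PCSK7 plus p53 embryos and 85.1, 92.7 and 96.7% in 24 h controls. These ranges overlap almost fully (log2 0.01, 95% interval -0.89 to 0.92). The width of that interval includes the spread of the 6 h arrays given below. On probe 2 isl1 read 29.0, 30.2 and 32.2% in PCSK7 plus p53 embryos, against 38.4, 39.8 and 37.3% in controls. That probe fell by 0.34 on the log2 scale (SE 0.10, adjusted p = 0.0240), so the probes of isl1 did not give the same call, and the call on probe 2 was lost with quantile normalization (adjusted p = 0.182) and when any of 4 of the 6 pools at 24 h was left out (0.0536 to 0.0770). At 6 h probe 1 was below background on all 3 PCSK7 plus p53 arrays, at 0.538, 0.371 and 0.251%, against 2.98 and 3.16% on 2 control arrays and 0.979%, below background, on the third. Since no 6 h group had isl1 above background throughout, its fitted 6 h change is not counted among the measured ones.

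The related factor gene isl2a, expressed in Rohon-Beard and motor neurons, was well above background on all 12 arrays on probe 1. At 6 h it read 6.73, 5.88 and 5.73% in PCSK7 plus p53 embryos, against 11.4, 12.5 and 11.4% in controls. The groups lay well apart, and the fall of 0.95 on the log2 scale (SE 0.08, adjusted p = 5.61e-06) was many times its error. The same probe at 24 h read 28.5, 28.6 and 27.0% in PCSK7 plus p53 embryos and 30.5, 30.2 and 27.7% in controls, which overlap (log2 -0.07, 95% interval -0.24 to 0.10). The other probes of isl2a pointed opposite ways at 24 h. Probe 2 averaged 99.6 ± 1.61% in PCSK7 plus p53 embryos and 123 ± 3.02% in controls (SD, n = 3 each) and was called lower (log2 -0.30, SE 0.07, adjusted p = 0.00453). Probe 3 averaged 81.3 ± 4.21% in PCSK7 plus p53 embryos and 61.3 ± 3.19% in controls (SD, n = 3 each). Although these arrays did not overlap, the change was not called (log2 0.41, SE 0.27, adjusted p = 0.252). It was called higher with the 24 h arrays fitted alone (adjusted p = 0.00561). The same held with normexp background correction and quantile normalization (log2 0.34, adjusted p = 0.000224). Neither probe 2 nor probe 3 was above background at 6 h.

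**Figure D2:**
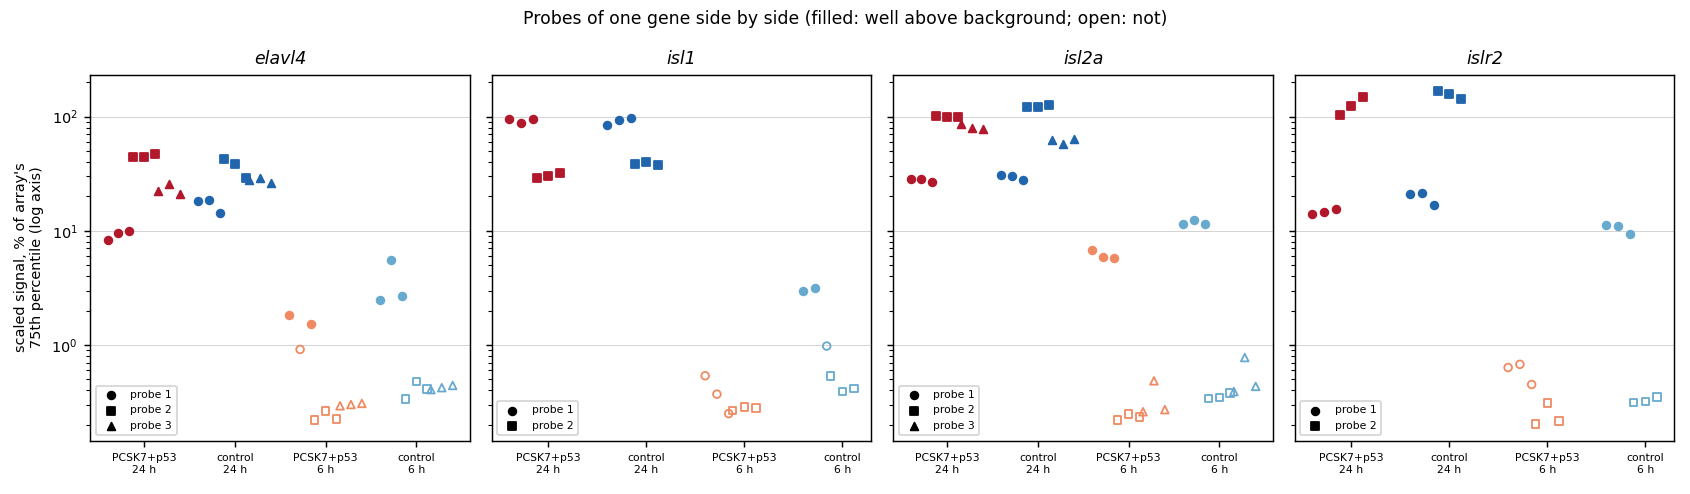
Scaled signal of each probe of elavl4, isl1, isl2a and islr2 on the 12 arrays, as a percent of the array's 75th percentile on a log axis. Circles, squares and triangles are probes 1, 2 and 3, filled where well above background. For elavl4 and isl2a the probes of 1 gene lie on different sides of the control level at 24 h, and at 6 h only probe 1 of each gene has filled points.

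The Hu genes encode proteins that bind AU-rich messages in neurons. The pan-neuronal marker elavl3 read 46.3, 53.1 and 56.1% in 24 h PCSK7 plus p53 embryos, against 42.5, 40.9 and 36.2% in 24 h controls. All 3 PCSK7 plus p53 arrays were the higher ones, but the difference of 0.38 on the log2 scale (SE 0.19, adjusted p = 0.136) was not called. At 6 h elavl3 read 1.86, 1.89 and 1.51% in PCSK7 plus p53 embryos, all above background, and 1.17, 0.836 and 1.54% in controls, none of them above it. The lowest PCSK7 plus p53 array lay under the highest control array. The test called the rise (log2 0.60, SE 0.19, adjusted p = 0.0201), the measured bound was at least 1.16-fold, and the call was lost when the second control pool was left out (log2 0.38, adjusted p = 0.0584) and when the first or the second PCSK7 plus p53 pool was (adjusted p 0.0565 and 0.0623).

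For elavl4 the 3 probes disagreed at 24 h. On probe 1 it read 8.38, 9.53 and 10.1% in PCSK7 plus p53 embryos, against 18.0, 18.5 and 14.4% in controls, a fall of 0.86 (SE 0.32, adjusted p = 0.0481). That call was lost whenever any single 24 h pool was left out (adjusted p 0.0631 to 0.126). Probe 3 was also lower, at 22.2, 25.9 and 21.2% in PCSK7 plus p53 embryos against 28.1, 28.9 and 26.4% in controls (log2 -0.27, SE 0.08, adjusted p = 0.0189), a call lost when any of 3 of the 6 pools was left out (0.0623 to 0.0717). Probe 2 ran the other way without a call, at 44.5, 44.6 and 46.9% in PCSK7 plus p53 embryos and 42.7, 38.8 and 29.1% in controls (log2 0.32, SE 0.16, adjusted p = 0.129). At 6 h probe 1 read 1.83, 0.915 and 1.54% in PCSK7 plus p53 embryos, against 2.46, 5.55 and 2.66% in controls. The groups did not overlap and elavl4 fell by 1.27 on the log2 scale (SE 0.32, adjusted p = 0.00588). The second PCSK7 plus p53 array was not above background, and probes 2 and 3 were below background on all 6 h arrays.

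Among the axon genes, gap43, which encodes a membrane protein of growth cones, showed no detectable difference. It read 223, 232 and 266% in 24 h PCSK7 plus p53 embryos and 286, 284 and 255% in 24 h controls, with 1 array of each group in the range of the other (log2 -0.20, 95% interval -0.55 to 0.16, adjusted p = 0.341). At 6 h it read 2.94, 3.59 and 2.17% in PCSK7 plus p53 embryos and 2.84, 3.00 and 3.34% in controls. The 6 h interval of the change ran from -0.46 to 0.25, which holds changes of either direction.

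The largest fitted change of the 10 genes at 6 h was that of islr2, which encodes a transmembrane protein with leucine-rich repeats that in the mouse guides axons. Probe 1 read 0.635, 0.677 and 0.451% in PCSK7 plus p53 embryos, none above background, against 11.1, 11.0 and 9.41% in controls, all above it. The level was at least 10.8-fold lower in PCSK7 plus p53 embryos (fitted log2 change -4.18, SE 0.15, adjusted p = 5.95e-08). By 24 h the same probe read 14.0, 14.7 and 15.4% in PCSK7 plus p53 embryos, against 20.9, 21.5 and 16.7% in controls. These did not overlap, but the change of -0.41 (SE 0.15, adjusted p = 0.0505) was not called, although it was with a replicate block (adjusted p = 0.0276) and with the 24 h arrays fitted alone (adjusted p = 0.0237). Probe 2 of islr2 was below background on every 6 h array, in controls too, at 0.314 to 0.349%. At 24 h it was bright, at 103, 124 and 147% in PCSK7 plus p53 embryos and 167, 158 and 143% in controls, which overlap (log2 -0.33, SE 0.17, adjusted p = 0.130).

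The kinase activator gene cdk5r1a, whose product p35 switches on Cdk5 in neurons, was the 1 gene of the 10 that was bright at 6 h and below background at 24 h. At 6 h it read 8.52, 3.42 and 6.47% in PCSK7 plus p53 embryos, against 32.5, 37.5 and 34.1% in controls. All PCSK7 plus p53 arrays lay far below the controls, with a fall of 2.59 on the log2 scale (SE 0.35, adjusted p = 0.000141). The 24 h readings were 0.155, 0.341 and 0.254% in PCSK7 plus p53 embryos and 0.163, 0.205 and 0.264% in controls, so no change could be measured.

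Counted over probe 1 at 6 h, 2 of the 7 genes above background in a group were called higher and 4 lower, and 1 of the 2, neurod2, has no measurable rise. Among all named genes above background at 6 h, 35.5% were called higher and 29.4% lower, and among all such probes 32.2% were called higher and 29.4% lower. The 7 member probes had a median log2 change of -0.95, against 0.01 over all probes above background. Of them, elavl3 and neurod2 were above background throughout only in PCSK7 plus p53 embryos, and elavl4 and islr2 only in controls. Such genes enter through the group where they are high, so no conclusion on a direction is drawn from the counts or the median. At 24 h, 1 of the 9 measured genes was called higher and 1 lower, where 21.4% of all such genes were called higher and 25.9% lower. The gene called higher, neurod2, likewise entered only through its PCSK7 plus p53 arrays. Of the 18 member probes above background at 24 h, 3 were called higher, 4 lower and 11 neither, with 21.2% higher and 25.1% lower over all such probes. The arrays of the groups did not overlap for 13 of these 18 probes, against 62.7% of all probes measured at 24 h. These 24 h shares of member probes lay near those over all probes, so the counts say nothing particular to them. Counted whether or not they were above background, 7 of the 10 genes were called at 6 h, where 62.9% of all genes were, and 2 at 24 h, where 46.8% were. For the difference between the times 5 were called, against 50.3% of all genes. Fitting the 24 h arrays alone called 5 of the 10 genes at 24 h instead of 2, with elavl3 (adjusted p = 0.0230) and neurod4 (0.0217) added among the higher and islr2 (0.0237) among the lower, the sizes being unchanged. In that fit 23.4% of all genes above background at 24 h were called higher and 27.6% lower. Normexp background correction of the median signal followed by quantile normalization gave 0.71 for neurod2 at 24 h, still called. At 6 h it gave 0.22 for neurod2, -1.19 for islr2, -1.57 for cdk5r1a and -0.43 for isl2a, all still called. For elavl3 it gave 0.05 at 6 h, which was not called. This correction adds an offset of 50 to every signal, which by construction draws the log2 changes of dim probes toward 0. Its sizes are therefore not to be set against the fitted changes or bounds given above.

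**Figure D3:**
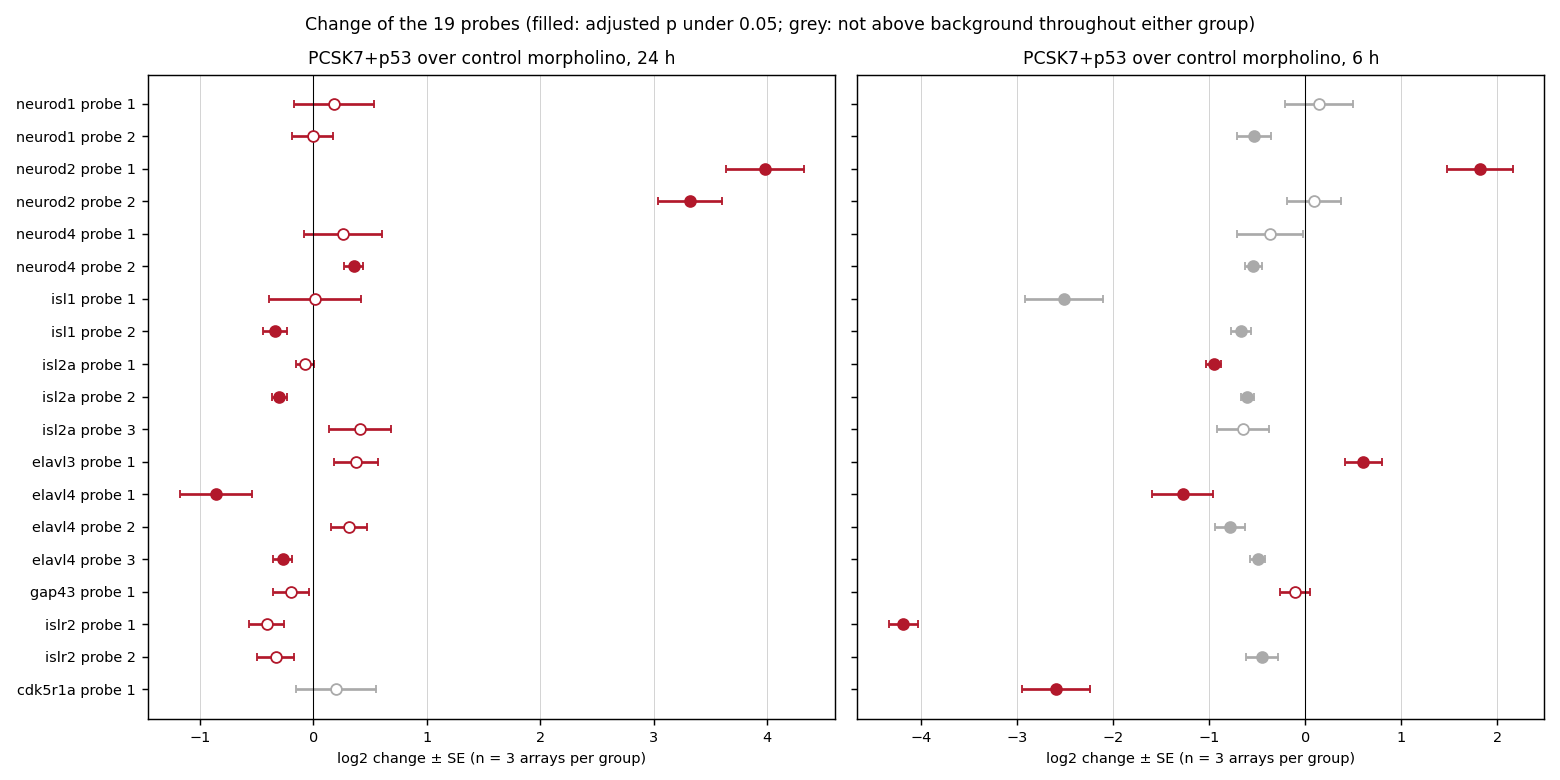
Fitted log2 change with its SE of each of the 19 probes, PCSK7 plus p53 over control, at 24 h on the left and at 6 h on the right (n = 3 arrays per group). Filled points have an adjusted p under 0.05, and grey points were not well above background throughout either group. The 2 neurod2 probes stand at 3.98 and 3.32 at 24 h, and islr2 probe 1 and cdk5r1a at -4.18 and -2.59 at 6 h.

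The change under PCSK7 plus p53 morpholinos could be compared between the times for 6 probes above background at each time. Its 24 h value minus its 6 h value was called for 3 of them, all higher at 24 h, where 49.8% of all such probes were called in either direction, so the count is at the level of the whole array. For islr2 the difference was 3.77 on the log2 scale (SE 0.22, adjusted p = 2.36e-06), with -0.41 at 24 h and -4.18 at 6 h, where the PCSK7 plus p53 arrays were below background, so that with the 6 h change at its bound the difference was at least 3.03. For neurod2 it was 2.16 (SE 0.49, adjusted p = 0.00502), with 3.98 at 24 h and 1.82 at 6 h, both fitted against control arrays below background, so its size has no measured bound, and its call was lost with quantile normalization (adjusted p = 0.138). For isl2a it was 0.88 (SE 0.11, adjusted p = 0.000173), with -0.07 at 24 h and -0.95 at 6 h. The differences of elavl3 (-0.23, 95% interval -0.83 to 0.38), elavl4 (0.41, -0.59 to 1.41) and gap43 (-0.09, -0.59 to 0.41) were not called. With normexp that of elavl3 was called in the other direction (0.31, adjusted p = 0.0157). The mean of its probes gave a call for elavl4 (0.58, adjusted p = 0.0342).

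Between 24 h and 6 h, compared within each morpholino, most of the genes differed in the same direction, with higher levels at 24 h. In PCSK7 plus p53 embryos 9 of the 10 were called higher at 24 h and 1 lower, where 47.6% of all genes were called higher and 43.3% lower. The arrays of these embryos lay on a different slide at each time, so these changes hold any effect of slide. In control embryos 8 were called higher, 1 lower and neurod2 neither, where 48.1% were called higher and 43.1% lower. With other scalings of the arrays the median change of all probes in control embryos lay between -0.28 and 0.18, against 0.04, and the members' changes below are to be read beside that shift.

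The bHLH gene neurod4 was higher at 24 h than at 6 h by 8.35 in PCSK7 plus p53 embryos and by 7.73 in controls on the log2 scale (SE 0.34 each, probe 1), with 1 of 3 arrays above background in each 6 h group. The gene neurod1 was at least 167-fold higher in PCSK7 plus p53 embryos and at least 94.6-fold higher in controls. These values rest on the working limit and move with the background of each group's arrays, so the groups' bounds are not to be set against each other. For gap43, measured on all 12 arrays, the change was 6.40 in PCSK7 plus p53 embryos and 6.49 in controls on the log2 scale (SE 0.16 each). Within the 3 control slides, each of which held 1 array of each time, it was 6.26 to 6.66. The marker elavl3 gained 4.89 in PCSK7 plus p53 embryos (SE 0.19) and was at least 26.4-fold higher in controls. Probe 1 of elavl4 gained 2.76 in PCSK7 plus p53 embryos, with 2 of 3 arrays above background at 6 h, and 2.35 in controls (SE 0.32 each).

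The Islet gene isl1 was at least 95.4-fold higher at 24 h in PCSK7 plus p53 embryos and higher by 5.44 on the log2 scale in controls (SE 0.41), where 2 of 3 arrays at 6 h were above background. On probe 1 isl2a gained 2.20 in PCSK7 plus p53 embryos and 1.32 in controls (SE 0.08 each), while its probe 2 was at least 103-fold higher in PCSK7 plus p53 embryos and at least 81.4-fold higher in controls. Probe 1 of isl2a was above background in 6 h embryos where probes 2 and 3 were not. The same split held for islr2, whose probe 2 was at least 128-fold higher at 24 h in PCSK7 plus p53 embryos and at least 103-fold higher in controls. Its probe 1 was at least 15.2-fold higher in PCSK7 plus p53 embryos and gained 0.90 in controls (SE 0.15, adjusted p = 0.000221). The control gain was 0.82 to 0.96 within slides.

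For neurod2, probe 1 gained 1.94 in PCSK7 plus p53 embryos (SE 0.35, adjusted p = 0.000298). That call was lost with quantile normalization (1.18, adjusted p = 0.0609) and in the authors' deposited table (0.868, adjusted p = 0.221). Probe 2 of neurod2 was at least 2.71-fold higher in PCSK7 plus p53 embryos. In controls neurod2 was not above background at either time, and no level can be given. The kinase activator cdk5r1a went the other way, at least 8.02-fold lower at 24 h in PCSK7 plus p53 embryos and at least 34.8-fold lower in controls.

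Other genes of neurogenesis were read from lists by role, each gene through its probe with the highest mean log2 value and only where it was above background in a group of that time. Their counts stand beside the shares over all such genes given above, 21.4% higher and 25.9% lower at 24 h and 35.5% higher and 29.4% lower at 6 h. At 6 h some genes entered only through the group where they are high. Examples are nhlh2 and map1b through PCSK7 plus p53 arrays and snap25b through control arrays. No conclusion on a direction is therefore drawn from the 6 h counts and medians of these lists. Of 20 proneural and onset-of-neurogenesis genes 17 passed the filter on dim probes. At 6 h 6 of 13 measured ones rose in PCSK7 plus p53 embryos and 2 fell, with a median of 0.38 against 0.04 over all measured genes. The zinc finger gene insm1b, used in newborn neurons and endocrine cells, read 56.8, 41.4 and 47.4% in PCSK7 plus p53 embryos, against 11.5, 12.4 and 7.28% in controls (log2 2.25, SE 0.19, adjusted p = 5.69e-06). The Hes-related gene hes6, which promotes neurogenesis, rose by 1.55 (SE 0.10). The fallers were ebf2 (-0.81, SE 0.17) and neurog1 (-0.47, SE 0.11), the neurogenin upstream of neurod1 and neurod4, which read 3.44 to 3.75% in 6 h PCSK7 plus p53 embryos and 4.61 to 5.83% in 6 h controls.

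At 24 h 3 of the 17 proneural genes rose and 4 fell, and the median was 0.14 against -0.03 over all measured genes. The neurogenin gene neurog1 rose, at 290, 338 and 294% in PCSK7 plus p53 embryos against 200, 171 and 210% in controls (log2 0.67, SE 0.11, adjusted p = 0.00101). The NeuroD relative neurod6a read 3.21 to 3.70% in PCSK7 plus p53 embryos and 2.00 to 2.42% in controls, a rise of 0.65 (SE 0.10). The largest falls were those of ebf3a, a factor of differentiating neurons (-0.88, SE 0.15), and atoh1a, which specifies rhombic lip and hair cell precursors (-0.55, SE 0.17).

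**Figure D4:**
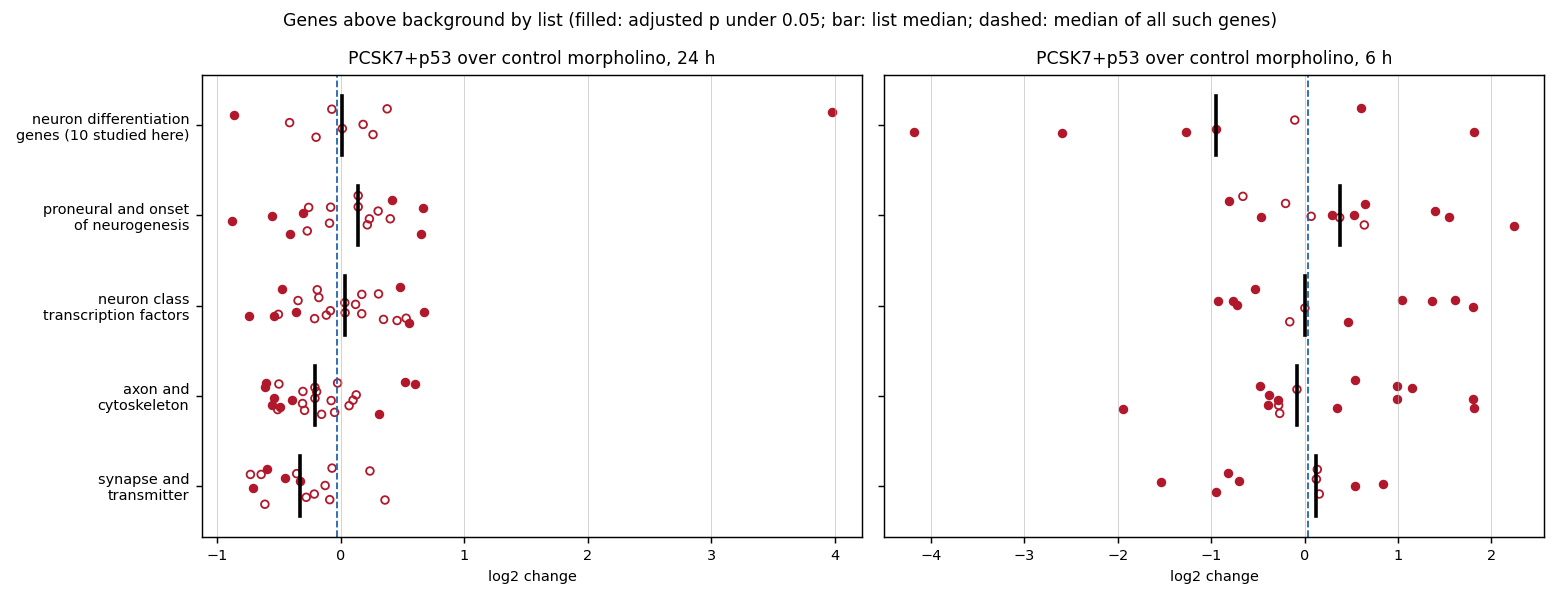
Log2 change, PCSK7 plus p53 over control, of each gene above background in the 10 genes studied and in 4 lists of related genes, at 24 h on the left and at 6 h on the right. Filled points have an adjusted p under 0.05, black bars are list medians, and the dashed line is the median over all genes above background. The points of the related lists at 24 h lie between -0.88 and 0.68. The point of neurod2 at 3.98 is fitted against control arrays below background, and its bound was a log2 change of 2.47.

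Of 26 axon and cytoskeleton genes 24 were measured at 24 h, where 3 rose and 6 fell (median -0.21). The Hu relative elavl2 rose, at 61.0, 46.9 and 45.9% in PCSK7 plus p53 embryos against 30.6, 33.6 and 36.3% in controls (log2 0.60, SE 0.12, adjusted p = 0.00223). The kinase gene cdk5, whose activator cdk5r1a encodes, rose by 0.52 (SE 0.14). The netrin receptor gene dcc fell by 0.61 (SE 0.14) and the neurofilament gene nefmb by 0.60 (SE 0.18). At 6 h 7 of 15 measured axon genes rose and 5 fell (median -0.08). The commissural axon receptor gene robo3 read 45.5, 52.6 and 46.4% in PCSK7 plus p53 embryos, against 12.5, 13.8 and 15.2% in controls (log2 1.80, SE 0.09), and dpysl2b, of the family that couples guidance signals to microtubules, rose by 1.81 (SE 0.12). The adhesion gene cntn2 fell by 1.94 (SE 0.21) and elavl2 by 0.48 (SE 0.12).

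Of 23 synapse and transmitter genes 15 were measured at 24 h. There 4 fell, a share near the 25.9% over all such genes, and 0 rose, where 21.4% of all such genes did. The other 11 were not called, and the median was -0.33 against -0.03 over all measured genes. The vesicle fusion gene vamp2 read 48.7, 57.8 and 55.0% in PCSK7 plus p53 embryos, against 88.9, 85.7 and 88.5% in controls, a fall of 0.71 (SE 0.11, adjusted p = 0.000493). The sodium channel gene scn8aa fell by 0.59 (SE 0.12). In the fit of the 24 h arrays alone 10 of the 15 were called, 8 of them lower, where 23.4% of all genes were called higher and 27.6% lower. In a separate fit, of all groups without the first 24 h PCSK7 plus p53 pool, 2 were called at 24 h. There 5045 of all 12849 genes were called. At 6 h 2 of 9 rose and 4 fell. The fallers included snap25b (-1.53, SE 0.24, with 2 of 3 PCSK7 plus p53 arrays above background) and the synapsin gene syn2a (-0.95, SE 0.09). The risers were gad1b (0.84, SE 0.32) and snap25a (0.54, SE 0.14), for each of which another probe was called in the opposite direction.

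Transcription factors of neuron classes stood at 23 of 29 listed. At 24 h 3 rose and 4 fell (median 0.03), led by pax2a (0.68, SE 0.11), a gene of midbrain-hindbrain boundary and interneurons, and lhx1a (0.55, SE 0.19), and in the other direction by drgx (-0.74, SE 0.18) and runx3 (-0.54, SE 0.09), both of sensory neurons. In the fit of the 24 h arrays alone 12 were called, 6 in each direction, close to the shares over all genes in that fit. At 6 h 5 of 11 rose and 4 fell (median 0.00). They included pou4f2 (1.80, SE 0.32, with 1 of 3 control arrays above background), lhx1a (1.61, SE 0.19), gata3 (-0.92, SE 0.09) and dbx1a (-0.77, SE 0.25). In all these lists, as in the 10 genes, calls at 6 h ran in both directions.

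Markers of other cell types that the embryo holds were read in the same way, with the same limit on the counts at 6 h. Over all genes above background 35.5% were called higher and 29.4% lower at 6 h, and 21.4% higher and 25.9% lower at 24 h. The summed signals below add probes whose levels cannot be compared, some of them below background at 6 h. Such a sum leans on its brightest probes and is not an amount of a cell type. Neural progenitor genes rose at 6 h in 8 of 11 measured cases (median 0.61), and the 14 that passed the filter had a summed scaled signal of 4362 to 4712% in PCSK7 plus p53 embryos and 3308 to 3869% in controls. At 24 h 3 of the 14 rose and 2 fell, at 12415 to 13246% in PCSK7 plus p53 embryos and 10922 to 11770% in controls. Epidermis and enveloping layer genes rose at 6 h in 5 of 6 cases, at 8235 to 8723% in PCSK7 plus p53 embryos against 3531 to 4823% in controls. All 6 of them fell at 24 h, at 69398 to 84155% in PCSK7 plus p53 embryos against 106783 to 122561% in controls.

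Because isl1 and neurod1 are also expressed outside neurons, pancreatic islet and heart markers were read too. Of 6 islet genes 1 rose at 24 h and 5 were not called, with sums of 224 to 247% in PCSK7 plus p53 embryos and 239 to 283% in controls. At 6 h 1 of 3 measured islet genes rose and 1 fell, and the sums were 76.5 to 99.0% in PCSK7 plus p53 embryos and 169 to 205% in controls. The 4 heart genes were not called at 24 h, with sums of 549 to 599% in PCSK7 plus p53 embryos and 493 to 686% in controls, and no heart gene was above background throughout a 6 h group. Retina and lens genes, 2 of 6 higher and 2 lower at 24 h, summed to 771 to 961% in PCSK7 plus p53 embryos and 1091 to 1251% in controls. The 4 glial genes were not called at 24 h, with sums of 856 to 963% in PCSK7 plus p53 embryos and 707 to 756% in controls. At 6 h the retina and lens sums were 15.2 to 18.6% in PCSK7 plus p53 embryos and 19.6 to 21.4% in controls, and the glial sums 108 to 123% in PCSK7 plus p53 embryos and 88.8 to 93.4% in controls. Both measured blood genes rose at 6 h, with sums of 19.8 to 24.2% in PCSK7 plus p53 embryos and 5.02 to 6.60% in controls. The blood gene cahz was above background on all 3 PCSK7 plus p53 arrays but on 1 control array at 6 h, so it entered through the group where it is high. The 4 blood genes measured at 24 h were not called, at 31122 to 36109% in PCSK7 plus p53 embryos and 34395 to 41473% in controls. Muscle genes, 2 higher and 1 lower of 4 at 6 h, summed to 21.2 to 22.8% in PCSK7 plus p53 embryos and 31.4 to 32.7% in controls. That sum was lower although myhz2 (fitted 1.50) and tnnt3b (0.93) were called higher and only desma (-1.73) lower. At 6 h myhz2 was above background on 0 of 3 control arrays and tnnt3b on 2 of 3, so both entered through their PCSK7 plus p53 arrays. At 24 h 1 of 7 muscle genes rose and 3 fell, at 30792 to 35308% in PCSK7 plus p53 embryos and 36386 to 47159% in controls. The part of these cell types in the changes of the 10 genes was not tested. Every marker of these lists that passed the filter was above background on all 24 h arrays.

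The genes whose pattern over the 12 arrays was most like that of elavl3, among 12839 genes compared by Pearson's r of log2 values, were fam167ab (0.9988), olig2 (0.9987), vax1 (0.9984), sp8a (0.9979) and eya2 (0.9976). The arrays share the 2 times, and each r spans the step between them. Of the 10 genes, gap43 (0.990), neurod1 (0.990) and neurod4 (0.986) followed elavl3 most closely, then isl1 (0.924), isl2a (0.891) and elavl4 (0.836). Further from it were islr2 at 0.611, neurod2 at 0.344 and cdk5r1a at -0.965.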

How the data were processed

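Agilent Feature Extraction (version 10.7.1 in the submitters' processing notes) had background-subtracted the deposited intensity values, which are on a linear scale per the file headers. Outlier spots were dropped, spots of 1 probe averaged, and log2 values centred on each array's 75th percentile. The filter left 36686 probes and 12849 genes, named through RefSeq accessions and the GRCz12tu gene table, so no coordinates are given. A gene stands by its probe with the highest mean log2 value over the 12 arrays. Tests were limma 3.58.1 in R 4.3.3, two-sided, with 1 mean per group and Benjamini-Hochberg adjustment over all probes left. Calls needed an adjusted p under 0.05. The named genes of related lists are the 2 largest called rises and falls per time. The members and lists were chosen with earlier results of these data known. The fit was tested on simulated data. Alternatives were normexp on the median signal with quantile normalization, quantile or cyclic loess alone, another percentile base, other filters, probe averaging, a replicate block, the 2 groups alone, leaving out each array, and the authors' deposited table (intensity, 19838 probes, 9 of the 19, with 0 columns without a sample).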

Additional observations from a re-analysis of the deposited data

Results flagged for a closer look

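The change under PCSK7 plus p53 morpholinos differed between 24 h and 6 h for 3 of the 6 probes that were above background in 1 group or both at each time, by limma's test of the difference, close to the 49.8% over all such probes. On islr2 probe 1 the 24 h change was higher than the 6 h change by a fitted 3.77 (log2), and by at least 3.03 with the 6 h change at its bound, since the 6 h PCSK7 plus p53 arrays were below background. On neurod2 probe 1 the fitted difference was 2.16, but the control arrays were below background at each time and no rise could be measured at 6 h, and in the authors' deposited table it was not called (adjusted p = 0.280). On isl2a probe 1 it was 0.88. The second probe of islr2, below background on all 6 h arrays, gave a difference of 0.12 (SE 0.24) that was not called.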

How the results depend on the processing

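Of the 10 genes, counted here whether or not they were above background, 7 were called at 6 h, 2 at 24 h, 5 for the difference between the times, 10 for 24 h against 6 h in PCSK7 plus p53 embryos and 9 in controls. Over all genes 62.9, 46.8 and 50.3% were called at 6 h, at 24 h and for the difference. For 24 h against 6 h, 11676 of all 12849 genes were called in PCSK7 plus p53 embryos and 11713 in controls. In the authors' deposited table, which holds probe 1 of 6 of them, the counts were 3, 1, 2, 5 and 5. It lacks probe 1 of elavl3, elavl4, isl2a and islr2, so their 6 h calls have no counterpart there. Of all 11786 genes with a value there, 7177, 5670, 5961, 10697 and 10781 were called. With only probes above background on all 12 arrays, which left 2 genes, the members' counts were 1, 0, 1, 2 and 2, fewer because fewer genes were tested. Of all 10064 genes left by that filter, 6833, 5544, 5653, 9138 and 9201 were called. At 24 h normexp gave 6 calls, no filter 1, the 24 h arrays alone 5, and leaving out single arrays 1 to 2. Over all 12849 genes normexp called 6205 at 24 h, no filter 5809 and the 24 h arrays alone 6450. Leaving out single 24 h arrays called 5023 to 5429.

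Several changes turned sign, most of them near 0. At 6 h gap43 was 0.018 with normexp and -0.27 to 0.090 when single arrays were left out. The mean of its probes put snap25a at -0.49. At 24 h neurod1 probe 2 was 0.029 with normexp, 0.0825 with quantile normalization, 0.145 with cyclic loess and -0.24 to 0.11 without single arrays. For isl1 probe 1 normexp gave -0.051, the mean of its probes -0.16 and leaving out arrays -0.037 to 0.056, and for isl2a the mean of its probes gave 0.012. The difference between times was 0.31 for elavl3 with normexp, where it was called (limma adjusted p = 0.0157), and -0.44 to 0.0017 without single arrays. It was -0.18 for elavl4 with normexp, and -0.29 to 0.076 for gap43 without single arrays. The cause was not tested.

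Same-numbered arrays of different groups hardly deviated together (correlations -0.05 to 0.02), so the numbers were not taken as pairs. In controls, 6 h and 24 h arrays of the same number shared a slide. Their correlations were 0.011 to 0.016, against -0.015 to 0.003 for control arrays of different numbers. With the replicate block the counts stayed at 7, 2, 5, 10 and 9, but at 24 h elavl4 lost its call (adjusted p = 0.0794) and islr2 gained one (0.0276). Of all 12849 genes 7782, 5586, 6067, 11593 and 11652 were called with that block. With 3 arrays a group, the array background limits what can be seen at 6 h, where in each group 12 of the 19 probes were below background on all 3 arrays.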
